A study of Drosophila melanogaster with 2 samples.

Results

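The genes described here encode the chitin-binding cuticle proteins of Drosophila melanogaster. They were taken from the Ensembl BDGP6 annotation as the protein-coding genes whose symbol begins with Cpr and a digit, or with Lcp, Pcp, Edg84A or Ccp84A. This rule found 94 genes among the 13945 protein-coding genes on the 6 main chromosome arms. The members lay on 3L (45 genes), 2R (26), 3R (13), 2L (6) and X (4), and none on chromosome 4.

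The insect cuticle is an extracellular layer of chitin fibrils and proteins that the epidermis secretes before each moult. Most members of this family carry the Rebers and Riddiford chitin-binding domain, and different sets of them are made for the larval, pupal and adult cuticle. Many of these genes are switched on and off by pulses of the steroid ecdysone and by the nuclear receptors that follow it, such as Ftz-F1. The prepupa is the stage in which the larval cuticle has become the puparium and the pupal cuticle is laid down.

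The series held 2 biological replicates of 1 group. These were whole prepupae aged 1 day, of the fly strain CG11294-GFP, in which CG11294, annotated as a paired-like homeodomain protein, was expressed as a fusion with eGFP. What drives the fusion gene is not given in the sources used here. Chromatin was sheared by sonication and immunoprecipitated for sequencing (ChIP-seq). The description names an antibody against GFP while the antibody label names CG11294, and which of them was recognised was not tested. No control immunoprecipitation, input or second stage was analysed here, so no conditions were compared, and binding by the tagged protein and other reasons for recovery cannot be told apart. In whole animals, binding in few cells and weak binding in many also could not be told apart.

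The data were peak lists on dm6. Each replicate and the series had a short list of peaks past a threshold on the IDR, the irreproducible discovery rate, and a long ranked list with peaks that missed it. The conservative list rests on rank agreement between the replicates and held 3261 thresholded peaks, the pooled list held 4330, replicate 1 held 3229 and replicate 2 held 2709. The ranked lists held from 66090 to 99725 peaks. The signal value is the authors' enrichment statistic on a scale not given in the sources used here. It is used below only within a list, where the median over the conservative thresholded peaks was 110. Read depth was unknown. A gene is called bound where a conservative thresholded summit lay within 1000 bp of any of its annotated transcription start sites, and positions are relative to the nearest start, negative upstream.

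Cuticle protein genes were rarely among the bound genes. Of the 94 members 3 were bound (3.19%, 95% Wilson interval 1.09% to 8.97%), against 1648 of all 13945 protein-coding genes, members included (11.8%), a ratio of shares of 0.270. In the pooled list 5 members were bound (5.32%, interval 2.29% to 11.9%), against 15.7% of coding genes. In replicate 1 alone 3 members were bound (3.19%), against 13.5%, and in replicate 2 alone 2 members (2.13%, interval 0.585% to 7.43%), against 10.3%. The members' share was below that of coding genes in each of the 4 lists. The intervals cover counting error over genes only, neighbouring genes can share a peak, and no test over the members was made.

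The 3 bound members were Cpr62Ba, Cpr64Aa and Cpr72Eb, all on 3L and all in small clusters. Cpr62Ba (FBgn0035279) had the highest signal of any member. Its peak covered chr3L:1829674-1829815 on dm6, inside an intron of Cpr62Ba, with the summit at -815 bp from the inner of its 2 annotated starts and 2026 bp downstream of the outer one. The signal was 80.3 in replicate 1 and 59.8 in replicate 2, with both peaks past the threshold, and 144 in the conservative list, rank 1107 of 3261 (IDR 0.000128). The peak at Cpr64Aa (FBgn0035510) covered chr3L:4209767-4210106, between Cpr64Aa and Cpr64Ab and within an intron of CG43367, with its summit at -759 bp. Its signal was 80.3 in replicate 1 and 47.0 in replicate 2, again past the threshold in both, and 126 in the conservative list, rank 1380 (IDR 0.000302).

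Cpr72Eb (FBgn0036618) was bound by the conservative list and replicate 1 but not by replicate 2. Its intergenic peak covered chr3L:16364212-16364551, with the summit at -517 bp. The signal was 50 in replicate 1 (IDR 0.000621), 31.7 in replicate 2, where the peak was in the ranked list only (IDR 0.0733), and 86.8 in the conservative list, rank 2203 (IDR 0.00391). The nearest thresholded summit of replicate 2 was 43779 bp away. Of the 3 conservative peaks, 2 therefore overlapped a thresholded peak in both replicates, and 1 in replicate 1 only. When 50% of both replicates' peaks had to overlap, 1 of the 3 did so. At Cpr62Ba the replicate 1 peak (82 bp wide) lay wholly inside the replicate 2 peak (296 bp), with summits at -810 and -795 bp.

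The 200 bases around these 3 summits are shown because they are the only conservative sites within 1000 bp of a member's start. They were read from the plus strand of the Release 6 genome (dm6), and capitals mark matches on either strand to 4 words, the homeodomain core TAATTA, the TATA box word TATAAA, the word CACTG and the Ftz-F1 core CAAGGNC, with overlapping matches run together. The windows are chr3L:1829657-1829856 (GC 37.5%), chr3L:4209837-4210036 (GC 32%) and chr3L:16364282-16364481 (GC 26.5%).
Cpr62Ba: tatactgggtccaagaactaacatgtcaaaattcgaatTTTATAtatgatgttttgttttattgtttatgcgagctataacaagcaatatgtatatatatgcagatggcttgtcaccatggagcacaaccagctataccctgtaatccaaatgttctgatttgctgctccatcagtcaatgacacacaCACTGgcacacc
Cpr64Aa: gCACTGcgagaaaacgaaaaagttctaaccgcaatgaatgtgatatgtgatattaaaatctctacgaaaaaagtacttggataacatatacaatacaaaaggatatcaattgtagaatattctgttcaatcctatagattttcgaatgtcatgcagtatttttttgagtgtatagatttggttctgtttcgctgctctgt
Cpr72Eb: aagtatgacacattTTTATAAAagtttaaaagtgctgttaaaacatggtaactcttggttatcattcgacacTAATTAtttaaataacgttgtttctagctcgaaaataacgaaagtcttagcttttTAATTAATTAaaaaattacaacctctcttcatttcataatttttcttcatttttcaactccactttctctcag

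The homeodomain core was in 1 of these 3 windows, that of Cpr72Eb, which held 3 copies, 2 of them overlapping, and 2 of TATAAA. The Cpr62Ba window held 1 TATAAA and 1 CACTG, and the Cpr64Aa window 1 CACTG. Over all 3260 conservative summits on the arms, 16.4% of windows of this length held TAATTA, 35.9% TATAAA, 52.6% CACTG and 3.31% the Ftz-F1 core. The mean GC content of those windows was 35.7% (SD 7.0 over summits). A match is only a run of letters and does not show a site.

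A further 2 members, Cpr49Ah and Cpr67Fa2, were bound in the pooled list only. Cpr49Ah, in the 49A cluster, had a pooled summit at -708 bp with a signal of 59.2 (pooled IDR 0.00585). The same peak had an IDR of 0.461 in the conservative ranked list, and the ranked signal was 45.3 in replicate 1, at -726 bp. The highest replicate 2 peak near the gene (30.1) lay elsewhere, at -48 bp. Cpr67Fa2 had a pooled summit 445 bp downstream of its start, in its own coding exon, with a signal of 64.3 (IDR 0.00880). That gene had no ranked peak within 1000 bp in replicate 1 or in the conservative ranked list, and one of signal 50.9 in replicate 2 (IDR 0.0242), so this site rests on replicate 2. Its window is shown as the contrast in composition with the 3 conservative ones, at chr3L:10892059-10892258 on the plus strand, with a GC content of 61.0% and none of the 4 words.
Cpr67Fa2: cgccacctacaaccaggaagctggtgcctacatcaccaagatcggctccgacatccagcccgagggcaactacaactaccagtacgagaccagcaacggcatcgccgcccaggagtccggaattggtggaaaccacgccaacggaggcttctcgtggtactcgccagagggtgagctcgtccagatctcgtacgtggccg

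Several members lay just outside the window, and part of them shared the peaks already described. Cpr73D, whose start was 1232 bp from a summit of signal 62.4, was the nearest unbound member, and that summit lay nearer to the start of Ogdh (693 bp), a gene that was named after its value was seen and encodes oxoglutarate dehydrogenase. Cpr64Ab was 1603 bp from the peak of Cpr64Aa, and Cpr76Ba was 1613 bp from a summit of signal 66.7 at the edge of the 76B cluster. The summits near Cpr73D and Cpr76Ba were not thresholded in either replicate. The nearest thresholded summit in replicates 1 and 2 lay 17055 and 27056 bp from Cpr73D, and 6538 and 42472 bp from Cpr76Ba. Cpr72Ea was 1779 bp from the peak of Cpr72Eb. Altogether 4 members (4.26%) had their nearest conservative summit over 1000 and up to 2000 bp away, against 3.75% of coding genes, so at these distances members and coding genes had similar shares. On the side of the IDR threshold, the nearest peaks that missed it were those of Cpr49Aa (IDR 0.0365, signal 45.1) and Cpr72Ec (IDR 0.0478, signal 44.6), which were picked after their values were seen.

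No member had a conservative summit close to its start. Within 500 bp of a start 0 of the 94 had one, against 1309 of all 13945 coding genes (9.39%). The 3 bound members had summits 517, 759 and 815 bp upstream, and the median distance of the 1648 bound coding genes was 194 bp. The members' distance to the nearest conservative summit ranged from 517 to 228092 bp with a median of 24746 bp (quartiles 10272 and 39904), and the median over coding genes was 14046 bp (quartiles 4593 and 34914). More than 10 kb from any summit were 71 members (75.5%) and 58.9% of coding genes, and more than 20 kb from one were 56 members (59.6%) and 39.9%. Beyond 50 kb the order turned, with 12 members (12.8%) and 17.4% of coding genes. Of those 12 members 8 made up the 84A cluster, and the other 4 were Cpr50Ca, Cpr50Cb, Cpr60D and Cpr12A.

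**Figure D1:**
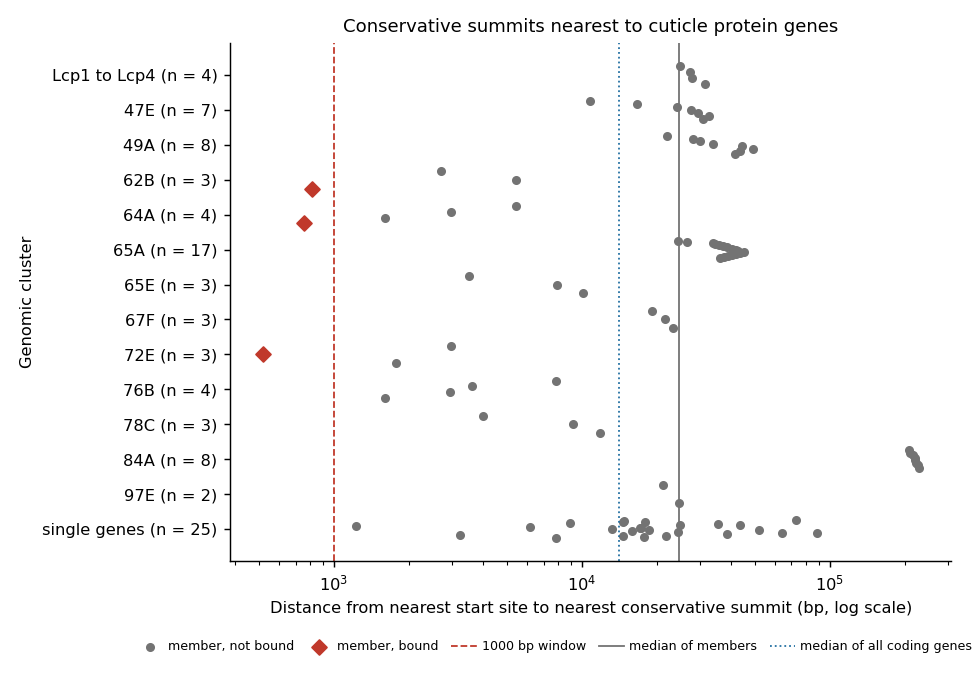
Distance in bp (log scale) from the nearest start of each of the 94 cuticle protein genes to the nearest conservative thresholded summit, 1 point a gene, by genomic cluster. Red diamonds are the 3 bound members, the dashed line is the 1000 bp window, and the solid and dotted lines are the medians of members (24746 bp) and of all coding genes (14046 bp). The 84A genes stand far to the right, at 208453 bp or more.

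Members fell into 13 clusters of at least 2 genes, with neighbouring gene starts within 20000 bp, which held 69 members, while 25 members stood alone. All 3 bound members were in clusters of 3 or 4 genes (62B, 64A and 72E), 1 in each, and no single gene was bound. The 4 clusters of 5 or more members, 47E (7 genes), 49A (8), 65A (17) and 84A (8), together held 40 members and no conservative summit within their span or 1000 bp beside it. The 13 clusters covered 207 kb in all, and 5 conservative summits lay in or within 1000 bp of 4 of them. These were the 3 described, and 2 in 76B, of which 1 lay in an intron of Cpr76Bc at 3614 bp from its start (signal 71.1). With 1000 bp on either side the clusters held 2.14 conservative summits per 100 kb, against 2.44 over the 6 arms. The first value rests on 5 summits. The second is a mean over full arm lengths, long stretches without a summit included, so the 2 are not a like comparison. Cluster members share chromatin and peaks and are not independent of each other.

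The summits that border the clusters had signals from 66.7 to 580. The summit nearest to 47E was 10815 bp beyond it, at the 5′ UTR of Fbl6 (signal 315), and on the other side one of signal 233 lay 145 bp from the start of CG7737. Among the 47E genes, Cpr47Ed had the highest signal within 1000 bp of a start in the conservative ranked list, at 37.7 (IDR 0.164). Near it the signal was 23.5 in replicate 1 and 17.7 in replicate 2, where 3 other genes of the cluster had higher ones (18.4 to 23.8). The 4 larval cuticle genes Lcp1 to Lcp4, made in the third larval instar, were 24959 to 31363 bp from a summit, and the one nearest to them, by Mal-A5, had a signal of 422. The 64A cluster, with its bound Cpr64Aa, lay 11962 bp from a summit of signal 580 in an intron of ImpL2. The border genes were picked with their values in view.

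How far the 84A cluster lay from a summit depended on the list. Its genes Edg84A and Ccp84Aa to Ccp84Ag were 208453 to 228092 bp from the nearest conservative summit. The nearest thresholded summit lay at 55420 to 75059 bp in replicate 1 (signal 36.5), at 19233 to 38872 bp in replicate 2 (signal 31.6) and at 19229 to 38868 bp in the pooled list (signal 56.9). The stretch around them without a conservative summit measured 482687 bp, and of the 3254 intervals between neighbouring summits 4 were longer, against a median of 12708 bp. It ran from an intron of gpp (signal 68.6) to one shared by Antp and CG46458 (signal 76.2). The cluster sits within the Antennapedia complex of homeotic genes, 5855 bp from labial (lab) and 2897 bp from proboscipedia (pb). Besides those genes, zen, bcd, Dfd and Scr lay in the same stretch, at 62556 bp or more from any conservative summit. Their distances in the other lists are not given here. The stretch was therefore not limited to cuticle genes.

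Edg84A, a pupal cuticle gene expressed in prepupae and a known target of Ftz-F1, had no thresholded summit in the conservative list nearer than 228092 bp. It did have relaxed peaks, 473 bp downstream of the start in its coding exon in the conservative ranked list (signal 44.9, IDR 0.107), with signals of 16.2 in replicate 1 and 29.3 in replicate 2. The pooled ranked list had none within 1000 bp. The 200 bases before its start, chr3R:6684245-6684444 on the plus strand (GC 52.5%), are shown because they hold a match to the Ftz-F1 core without a peak of either replicate centred there. They also hold 1 TATAAA and 2 copies of CACTG.
Edg84A: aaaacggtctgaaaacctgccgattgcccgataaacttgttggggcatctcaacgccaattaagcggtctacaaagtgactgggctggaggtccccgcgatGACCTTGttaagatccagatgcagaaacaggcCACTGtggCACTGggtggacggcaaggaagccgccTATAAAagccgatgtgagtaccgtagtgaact

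Members differed less from coding genes in the ranked lists, which hold the thresholded peaks and also those that missed the threshold. The conservative ranked list held 97942 peaks, against 3261 thresholded ones, with a mean of 7.25 summits per 10 kb of the arms. At that density a ranked summit within 1000 bp is common for any gene, so like shares do not show like binding. In the conservative ranked list 64 members (68.1%, interval 58.1% to 76.6%) had a summit within 1000 bp, against 73.1% of coding genes. The pooled ranked list gave 69 members (73.4%), against 81.1%, replicate 1 gave 65 (69.1%), against 62.9%, and replicate 2 gave 68 (72.3%), against 83.5%. In replicate 1 the members' share was thus above the background, and in the other 3 lists below it. Ranked peaks of both replicates lay near 53 members (56.4% and 55.9% of coding genes), of replicate 1 only near 12 (12.8% and 7.06%), of replicate 2 only near 15 (16% and 27.6%), and of neither near 14 (14.9% and 9.43%).

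**Figure D2:**
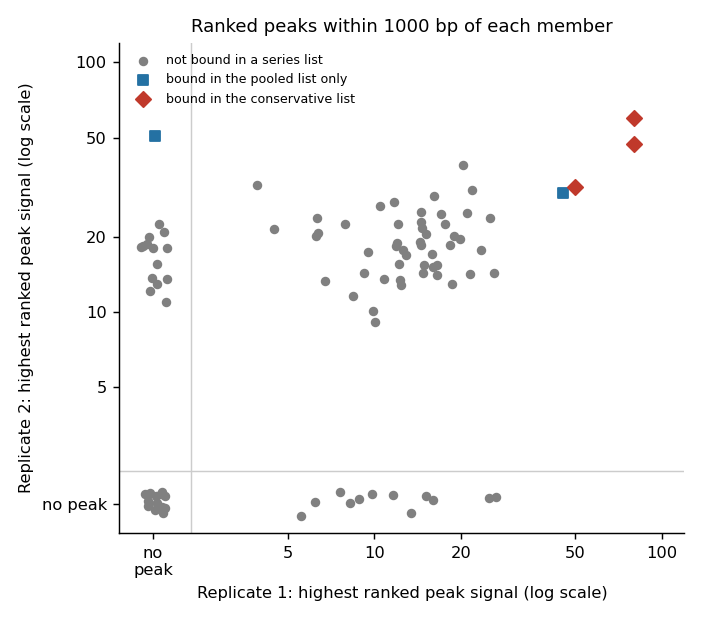
Highest ranked peak signal (authors' value, log scale) within 1000 bp of each member in replicate 1 (horizontal) and replicate 2 (vertical), 1 point a gene, with genes lacking a peak set at the axes and spread slightly so that points do not hide each other. Cpr62Ba and Cpr64Aa (80.3 in replicate 1) stand apart from the rest, while Cpr72Eb (50 and 31.7) lies beside Cpr49Ah (45.3 and 30.1). The 2 values of a gene can come from different peaks, as for Cpr49Ah (-726 bp in replicate 1 and -48 bp in replicate 2).

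The median signals of these ranked peaks, thresholded ones included, were also near those of other genes. Among the 64 members with a conservative ranked peak, the highest signal ranged from 9.45 to 144 with a median of 28.7, and over coding genes with such a peak the median was 29.9. In replicate 1 the medians were 14.5 for members and 16.7 for coding genes, and in replicate 2 they were 18.6 and 19.7. The upper quartiles of the conservative list stood further apart, at 36 for members and 49.2 for coding genes. Bound genes are part of both sets, 3 of the 64 members (4.69%) and 16.2% of the coding genes. Signals without the bound genes were not compared. The highest peak lay upstream of the start in 29 of the 64 members (45.3%), against 54.9% of coding genes. In replicate 1 the shares were 46.2% and 59.3%, but in replicate 2 they were 54.4% for members and 53.1% for coding genes. By their own gene's structure, 24 of the 64 conservative summits lay in a coding exon, 9 in an intron, 1 in the 5′ UTR, 1 in the 3′ UTR and 29 outside the gene. These classes were not counted for all coding genes, whose median length is greater (2166 bp, against 874 bp for members). They are therefore no sign of a trait of the members.

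The density of ranked peaks differed widely between clusters. Per 10 kb, the conservative ranked list held 15.8 summits in 76B, 13.2 in 65E, 13 in 97E, 12.3 in 64A, 11.9 in 72E, 11.5 in 47E, 11.1 in 49A, 10.5 in 62B and 9.63 around Lcp1 to Lcp4, against a mean of 7.25 over the 6 arms. Lower than that mean were 65A (4.22), 84A (4.01), 78C (1.77) and 67F, where there was none. In 67F and 78C most ranked summits came from replicate 2. In 67F replicate 2 held 11.9 summits per 10 kb and replicate 1 none, and in 78C replicate 2 held 11.5 and replicate 1 held 0.884. In 65A it was replicate 1 that held more (5.72 and 3.61 in replicate 2), and likewise in 84A (5.34 and 2.67). The arm means were 4.88 in replicate 1 and 6.68 in replicate 2. All arm means were taken over full arm lengths, long stretches without a thresholded summit included.

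**Figure D3:**
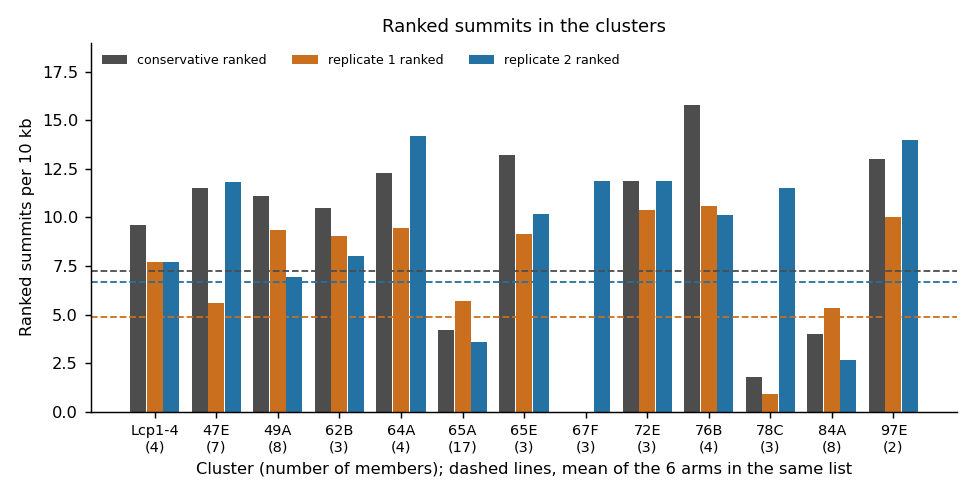
Ranked summits per 10 kb of each cluster and 1000 bp on either side, in the conservative ranked list and in those of replicates 1 and 2, with dashed lines at the mean of the 6 arms in the same list (7.25, 4.88 and 6.68). The clusters 65A, 67F, 78C and 84A have conservative bars below their line, and in 67F and 78C nearly all summits come from replicate 2.

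The 65A cluster, the largest of the family with 17 members on 3L, had relaxed peaks near few of its genes. A conservative ranked peak lay near 4 of the 17, namely Lcp65Aa, Cpr65Ax2, Cpr65Ay and Cpr65Az, and near 8 in replicate 1 and 3 in replicate 2. Within 1000 bp of a start, Cpr65Az had the highest signal of the cluster's genes in the conservative ranked list (22.6) and in replicate 2 (25.1), while in replicate 1 it had 14.5 and Lcp65Aa 15.9. Altogether 11 of the 94 members had no ranked peak within 1000 bp in any list, and 9 of these were in 65A, 1 was Ccp84Ab in 84A and 1 was the single gene Cpr35B. The like share of coding genes is not given here, so this count has no background. By the replicates alone, 14.9% of members and 9.43% of coding genes had none in either. The members of 65A were 24299 to 45113 bp from a conservative summit, and the stretch without a summit measured 90252 bp, between CG10467 (signal 336) and CG43293 (signal 171), named after their values were seen.

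**Figure D4:**
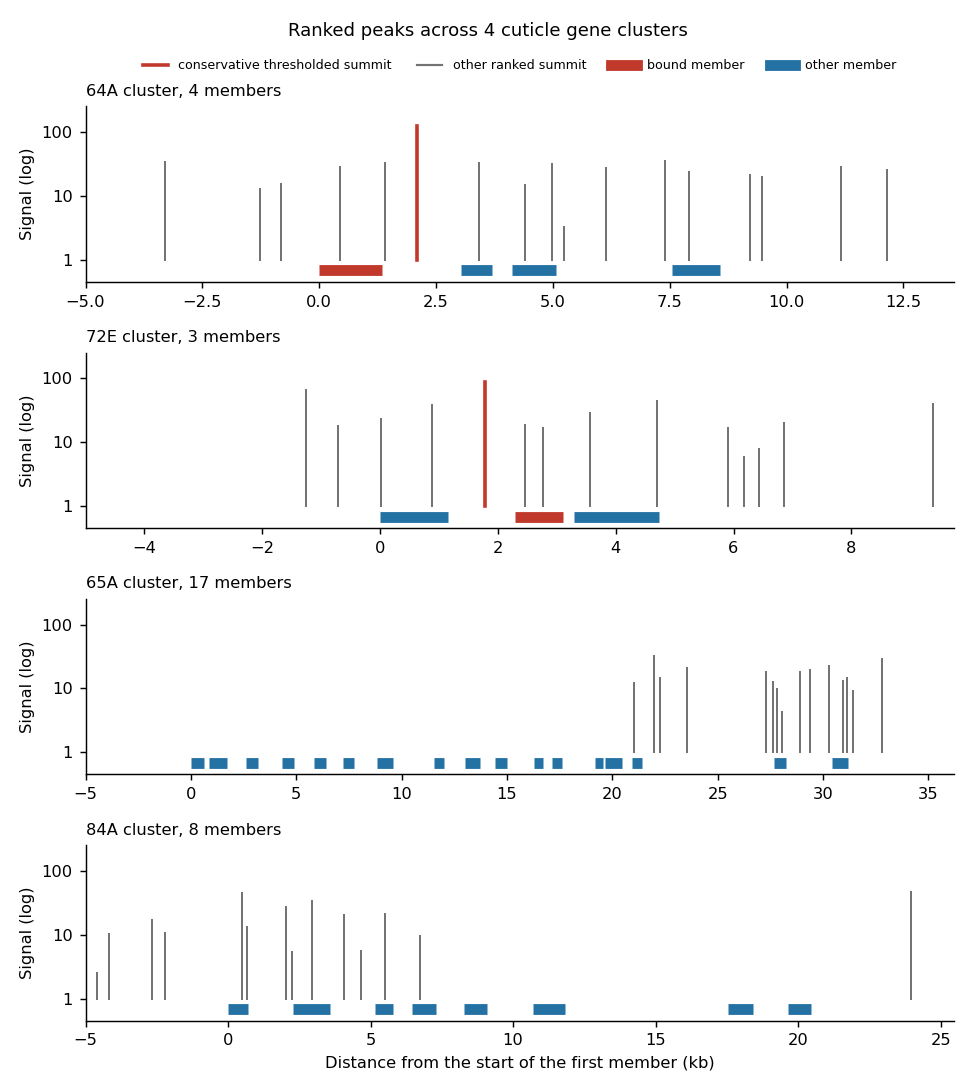
Summits of the conservative ranked list across the 64A, 72E, 65A and 84A clusters, with distance in kb from the start of the leftmost member (horizontal) and the authors' signal on a log scale (vertical). Red lines are thresholded summits, grey lines other ranked summits, and the blocks below are the genes, with bound members in red. In 65A the ranked summits lie at the right end only, near the 4 members that have one.

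Parts of 65A and 84A hold sequence that is repeated in the genome, so the share of repeated sequence is given beside these counts. Of the 32-base words within 1000 bp of a start, up to 73.7% occurred elsewhere in the genome (Lcp65Ab1), and 10 members (10.6%) had a share of 10% or more, against 5.15% of coding genes. Of the 9 members of 65A with a repeated share under 10%, 2 had a conservative ranked peak, and of the 8 others also 2. Of the 11 members with no ranked peak in any list 4 had a share under 10%. With the members of 10% or more left out, 62 of 84 members (73.8%) had a conservative ranked peak, against 75% of coding genes held to the same limit. Outside 65A and 84A 56 of 69 members (81.2%) had one, against 73.1% of all coding genes. These 2 clusters were left out after their few ranked peaks were seen, which raises the share by design. No like cut was made among coding genes. How reads at repeats were treated is not given in the sources used here, and the part of repeats in these counts was not tested.

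The 200 bases before 3 of the 65A starts show both kinds of gene. Lcp65Ab1 (chr3L:6149348-6149547, plus strand) and Lcp65Ab2 (chr3L:6146474-6146673, plus strand) are neighbouring copies whose sequences align over 197 bases with 195 identical (99%) and 2 mismatches, and neither had a ranked peak. Lcp65Af (chr3L:6136792-6136991, minus strand) had none either, with 0.100% of its words repeated. It was chosen after its values were seen. Each of the 3 holds 1 TATAAA and none of the other words.
Lcp65Ab1: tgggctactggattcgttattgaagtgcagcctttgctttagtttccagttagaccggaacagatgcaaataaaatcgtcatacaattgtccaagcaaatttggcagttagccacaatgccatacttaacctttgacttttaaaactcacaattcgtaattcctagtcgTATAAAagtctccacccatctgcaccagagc
Lcp65Ab2: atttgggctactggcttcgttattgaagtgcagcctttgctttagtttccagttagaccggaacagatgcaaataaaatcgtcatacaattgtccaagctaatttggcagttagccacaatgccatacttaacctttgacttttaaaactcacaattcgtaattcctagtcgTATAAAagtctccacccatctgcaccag
Lcp65Af: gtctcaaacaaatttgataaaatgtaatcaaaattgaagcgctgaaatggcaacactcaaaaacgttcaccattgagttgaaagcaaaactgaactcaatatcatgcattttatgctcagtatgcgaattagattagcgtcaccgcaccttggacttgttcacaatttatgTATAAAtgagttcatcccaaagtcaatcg

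The promoters of the members were set apart by their TATA box word. TATAAA on the gene's own strand, 40 to 20 bases before the start, was found in 52 of 94 members (55.3%), against 7.79% of all coding genes and 2.55% of the 1648 bound coding genes. Here and below, the promoter is that at the gene's 5′ end, 1 for each gene, while a gene is bound from any of its starts. The 2 can differ, as for Cpr62Ba, bound at its inner start with the outer one 2026 bp from the summit. Among genes that carry it, 2 of 52 members (3.85%) and 42 of 1087 coding genes (3.86%) were bound. Among genes without it, 1 of 42 members (2.38%) and 1606 of 12858 coding genes (12.5%) were bound. The members' intervals were 1.06% to 13% with the word and 0.422% to 12.3% without it. The ratio of bound shares was 0.995 with the word and 0.191 without it, each resting on at most 2 bound members. This comparison was chosen after the promoters were seen, and the part of the promoter type in the low share was not tested.

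**Figure D5:**
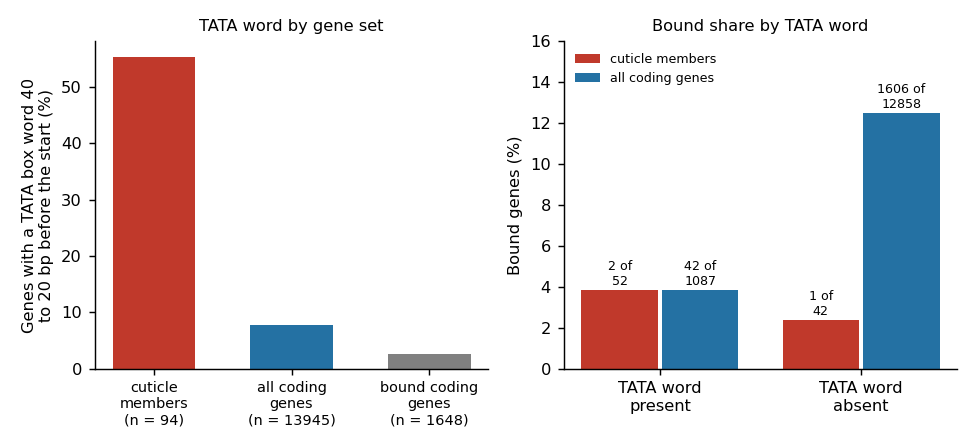
Left, share of genes (%) with the TATA box word on their own strand 40 to 20 bp before the start, among members (55.3%), all coding genes (7.79%) and bound coding genes (2.55%). Right, share of genes bound (%) with and without the word, with members in red, all coding genes in blue and the counts above the bars; with the word the bars are of like height (3.85% and 3.86%), and without it they differ (2.38% and 12.5%).

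The members' genes were also shorter than coding genes and higher in GC at the promoter, by their medians. Their median length was 874 bp, against 2166 bp over coding genes, and the GC content from 250 bases before to 50 after the start had a median of 44.0%, against 38%. Of the 94 members 85 had 1 annotated start, as did 10246 of the 13945 coding genes. Among genes with 1 start 2 of 85 members (2.35%, interval 0.648% to 8.18%) and 8.23% of coding genes were bound. Within the members' middle range of promoter GC (40% to 48.6%) 2 of 47 members (4.26%, interval 1.17% to 14.2%) and 12.6% of coding genes were bound. Among genes of at most 1600 bp it was 2 of 70 members (2.86%, interval 0.787% to 9.83%) and 6.19% of coding genes. Each range rests on 2 bound members, and in the ranges of GC and length the members' interval holds the share of coding genes.

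On either strand of the same 300 bases, TATAAA was found in 69 members (73.4%), against 45.8% of coding genes, and CACTG in 31 members (33.0%), against 46.2%. The homeodomain core TAATTA was found in 16 members (17.0%), against 20.4%. The Ftz-F1 core CAAGGNC was found in 4 members (4.26%), against 5.69%. Those 4 were Cpr47Ec, Cpr5C, Cpr65Ay and Edg84A. None of them was bound, but 4 genes are too few to set against the 11.8% of all coding genes that were. The words could overlap one another.

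Other genes of the cuticle are set here against the 11.8% of all coding genes that were bound. Of 35 other cuticle protein genes, such as the Twdl family, none was bound (0%, interval up to 9.89%), with relaxed peaks near 28 (80.0%) and a median distance of 25421 bp from a conservative summit, close to the 24746 bp of the members. Genes of chitin synthesis and matrix were bound at 4 of 24 (16.7%, interval 6.68% to 35.9%), with a median distance of 54640 bp. These were nst (signal 118), mmy (73.4) and Gfat2 (79.3), which encode enzymes on the way to UDP-N-acetylglucosamine, and obst-B (85.0), which encodes a chitin-binding protein. Genes of chitin breakdown and related enzymes were bound at 5 of 19 (26.3%, interval 11.8% to 48.8%), with a median distance of 8154 bp. Hexo2, a hexosaminidase gene, had the highest signal of them (468, summit at -224 bp), followed by the chitinase genes Cht7 (252, -192 bp) and Cht11 (130, -149 bp), fdl (126, 682 bp), another hexosaminidase gene, and Idgf2 (105, -276 bp), which encodes a chitinase-like growth factor.

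Of 9 tanning genes 1 was bound (11.1%, interval 1.99% to 43.5%), namely Pu (signal 89.4), which encodes GTP cyclohydrolase. Of 12 ecdysone and cuticle regulators 2 were bound (16.7%, interval 4.70% to 44.8%), the nuclear receptor genes Eip75B (128) and EcR (91.8). The rest, ftz-f1 among them, were not. Both shares were near the 11.8% of all coding genes. In replicate 1 obst-B and Pu, and in replicate 2 Gfat2 and EcR, had no thresholded summit within 1000 bp of a start, whereas the 5 bound breakdown genes had one in both replicates. The lists are small, and no list was tested against another. The intervals of synthesis, breakdown, tanning and regulator genes reach the share of all coding genes.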

How the data were processed

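Peak lists of anti-GFP ChIP-seq from 2 biological replicates of whole prepupae were analysed on dm6, the build per the labels. Read depth, and the names and versions of the aligner and peak caller, are not given in the sources used here. The deposited signal value of each peak is the authors' enrichment statistic on an unstated scale and served only to rank and describe peaks of the same list. From the −log10 IDR values in the deposited ranked lists the IDR was recomputed, and all thresholded peaks had one under 0.01 there. Which ranked list rests on the replicates was inferred from its inputs, of which 59.0% equalled replicate 1 ranked peaks, against 0% for the pooled list.

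Summits were set against every annotated transcript start of Ensembl release 115 BDGP6 protein-coding genes on 6 arms, and gene starts within 20000 bp of each other joined members into clusters. Sequence came from the Release 6 genome, and all peak ends lay within its arm lengths. Repeats were counted as 32-base words found more than 1 time in the genome. Promoter words and GC were read at the gene's 5′ end. Words were searched on both strands, apart from the TATA box position. Shares carry 95% Wilson intervals. Neither a set test nor a test between conditions was made, because there was 1 group and no control; only the replicates' own values bear on spread.

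The members and lists were chosen with earlier results of these data known. Named were the bound members, those bound in another list, the highest ranked signal in each cluster of 5 or more, the 3 nearest unbound members, Edg84A, and up to 5 bound genes of each of the 5 related lists; other names are said to be chosen later. AANAT1 was not matched in the annotation. Alternatives were the pooled list, each replicate alone, other IDR limits, windows, start definitions, overlaps, cluster distances and matched gene ranges. Python 3.11.15 with numpy 2.4.6, pandas 2.3.3, scipy 1.17.1, matplotlib 3.10.9 and Biopython 1.88 was used, and the assignment of summits to starts was tested on simulated data.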

Additional observations from a re-analysis of the deposited data

How the results depend on the processing

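The count of bound members (3) was 5 in the pooled list, 5 with ranked peaks of an IDR under 0.05, 0 with a window of 500 bp, 7 with 2000 bp and 15 with 5000 bp, and 2 to 3 in either replicate alone. The ratio of the members' bound share to that of coding genes (0.270) was 0.338 in the pooled list, 0.333 at an IDR under 0.05, 0.209 from the gene's 5′ end, 0 at 500 bp, 0.478 at 2000 bp and 0.605 at 5000 bp, and 0.206 to 0.237 in either replicate alone. In ranges chosen after seeing the data it was 0.338 at like promoter GC, 0.462 at like gene length, 0.995 with the TATA box word and 0.191 without it. With that word the shares were 3.85% for members and 3.86% for coding genes, and each of these ranges rests on at most 2 bound members. The median distance (24746 bp) was 17896 bp in the pooled list, 30516 bp at an IDR under 0.001, 31902 bp for the strongest peaks by signal (the upper 50%), 16888 bp at an IDR under 0.05 and 24754 to 27310 bp in either replicate alone. Clusters with a bound member (3) were 5 in the pooled list, 0 at 500 bp, 6 at 5000 bp and 2 to 3 in either replicate alone. Related genes bound (12) were 7 at an IDR under 0.001, 6 for the strongest peaks by signal, 25 at 5000 bp and 11 to 15 in either replicate alone. The share of members with a conservative ranked peak (68.1%), in settings chosen after seeing the data, was 73.4% in the pooled list, 69.1% to 72.3% in either replicate alone, 57.4% at 500 bp, 74.5% at 2000 bp, 81.2% outside 65A and 84A and 73.8% under 10% repeats. Conservative peaks near members that overlapped a thresholded peak in both replicates (2) were 1 when 50% of both peaks had to overlap. The cause of these changes was not tested, beyond the fewer or more peaks and wider windows of the settings themselves. No paired analysis was possible because there is 1 group. Unknown read depth sets how weak a site could be listed.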

Other observations

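Cpr31A, a single gene on 2L, lay 3215 bp from a conservative summit, and Cpr50Ca and Cpr50Cb shared an interval of 271394 bp without one, of which 39 on the arms were longer. Cpr78E lay in one of 194163 bp and Cpr12A, on X, in one of 169201 bp. Members with no conservative ranked peak but 1 in replicate 2 were found in 67F, where the signals were 18.2 for Cpr67Fa1, 50.9 for Cpr67Fa2 and 18.8 for Cpr67Fb, and in 78C, where Cpr78Ca and Cpr78Cb shared 1 peak of 18.1. Cpr47Ef and Cpr47Eg had 18.4 and 21.0. Single genes with the same pattern were Cpr50Ca (19.9), Cpr51A (13.6), Cpr60D (22.6) and Lcp9 (12.2). These genes were chosen after their values were seen. With 2 replicates, no control and whole animals, a low value in 1 replicate and a site in few cells cannot be told apart.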
